A study of Mus musculus with 6 samples.

Results

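The collagen gene family was examined in osteoblasts, the cells that lay down bone matrix, cultured from the skull vault (calvaria) of neonatal mice. The chains were taken as every entry of the deposited gene table whose symbol reads Col, a type number, a and a chain number, with at least 10 counts summed over the 6 libraries. This gave 44 chains of 29018 genes in the table, and none of the 44 fell under the minimum. The lowest sums were 18 counts for Col6a5 and 59 for Col4a3. The groups were NDR1 KO osteoblasts, labelled as a knockout of the serine/threonine kinase NDR1 (gene Stk38), and WT osteoblasts, with 3 libraries of polyA RNA each. Both groups were taken through osteogenic differentiation in culture. The strain, sex, KO allele, length of culture and number of animals behind a library were not given in the sources used here, so the p-values reflect only how these libraries vary, and that variation may be technical. The question put to the family was how the mRNA of each kind of collagen differed between osteoblasts labelled NDR1 KO and WT.

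Collagens are trimers of chains wound into a triple helix through repeats of glycine followed by other residues, often proline and hydroxyproline. Fibrillar chains build the rope-like fibrils of bone, tendon, skin and cartilage. FACIT chains (fibril-associated collagens with interrupted triple helices) sit on the surface of those fibrils. Network chains form sheets, among them type IV of basement membranes, type VIII, and type X of mineralizing cartilage. Type VI chains assemble into beaded microfibrils, transmembrane collagens stay anchored in the cell membrane, and multiplexins carry sugar side chains in basement membrane zones. Bone is mostly type I, a trimer of a pair of alpha1 chains with 1 alpha2 chain, laid down by osteoblasts before mineral is deposited. Of the 44 chains, 11 were fibrillar, 9 FACIT, 9 network, 6 microfibril and 4 transmembrane. The other 5 were the multiplexins Col15a1 and Col18a1, the anchoring fibril chain Col7a1, and Col26a1 and Col28a1.

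Library totals ran from 61461870 to 76159034 counts in KO and from 66308530 to 68395991 counts in WT. Levels below are CPM, read counts relative to the TMM-scaled library total, which are not divided by gene length, or FPKM as deposited, which are. Changes are log2 KO over WT ± SE from the quasi-likelihood test of edgeR, adjusted by Benjamini-Hochberg over the 18221 genes tested, and a chain was called at an adjusted p under 0.05. Stk38 itself had 3843, 3004 and 4040 counts in KO and 4781, 5082 and 5331 counts in WT, a log2 change of -0.61 ± 0.05, so every KO library lay below WT but none was without reads. Its reads pool all exons, and the removed part was not given. All 9 osteoblast markers listed were read, with Alpl, the alkaline phosphatase of bone, at 42.7 ± 3.42 CPM in KO and 97.0 ± 2.27 CPM in WT and Bglap, an osteocalcin gene, near 0 at 0.390 ± 0.182 CPM in KO and 0.732 ± 0.332 CPM in WT.

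Collagen chains took a smaller share of the reads in KO than in WT osteoblasts, and the family changed in both directions. Of the 44 chains 43 passed the filter on low counts and were tested, and 24 of them fell and 6 rose, while 13 were not called. Over all genes tested 11.7% were called lower and 11.2% higher, or 22.9% in either direction. The median log2 change was -0.39 over the 43 chains and 0.00 over all genes tested. The KO values lay wholly on one side of the WT values for 35 of the 43 chains, where 38.2% of all genes tested did so. Genes called higher made up 49.0% of all calls after TMM, 63.0% on library totals without TMM and 64.4% in limma on log2(FPKM + 1), while the chains stayed at 24 lower and 6 higher without TMM and at 22 lower and 5 higher in limma. Collagen reads made up 8.28, 8.34 and 8.55% of all counts in the KO libraries, against 10.3, 10.4 and 10.4% in the WT libraries, so no KO library reached the lowest WT library. In whole cultures, fewer cells of a type and less RNA per cell cannot be told apart.

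Ordered by length-scaled level, the family was led by the same chains in both groups. The type I chains Col1a1 and Col1a2 stood first and second at 3363 ± 74.9 and 1565 ± 36.9 FPKM in KO, against 4469 ± 101 and 2152 ± 29.5 FPKM in WT (SD, n = 3). Col3a1 and Col6a1 came next in both groups, at 975 ± 13.9 and 494 ± 9.95 FPKM in KO, against 1051 ± 17.3 and 527 ± 9.01 FPKM in WT. Below these the order differed. Col2a1, the main fibrillar chain of cartilage, ranked 5 in KO and 9 in WT. Col8a2 ranked 15 in KO and 11 in WT, and Col4a5 ranked 19 in KO and 23 in WT. In KO the Col2a1 libraries ran from 453 to 488 FPKM and the Col6a1 libraries from 487 to 505 FPKM. At the low end, Col4a3, Col6a4, Col6a5 and Col20a1 averaged at most 0.0415 FPKM in either group.

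**Figure D1:**
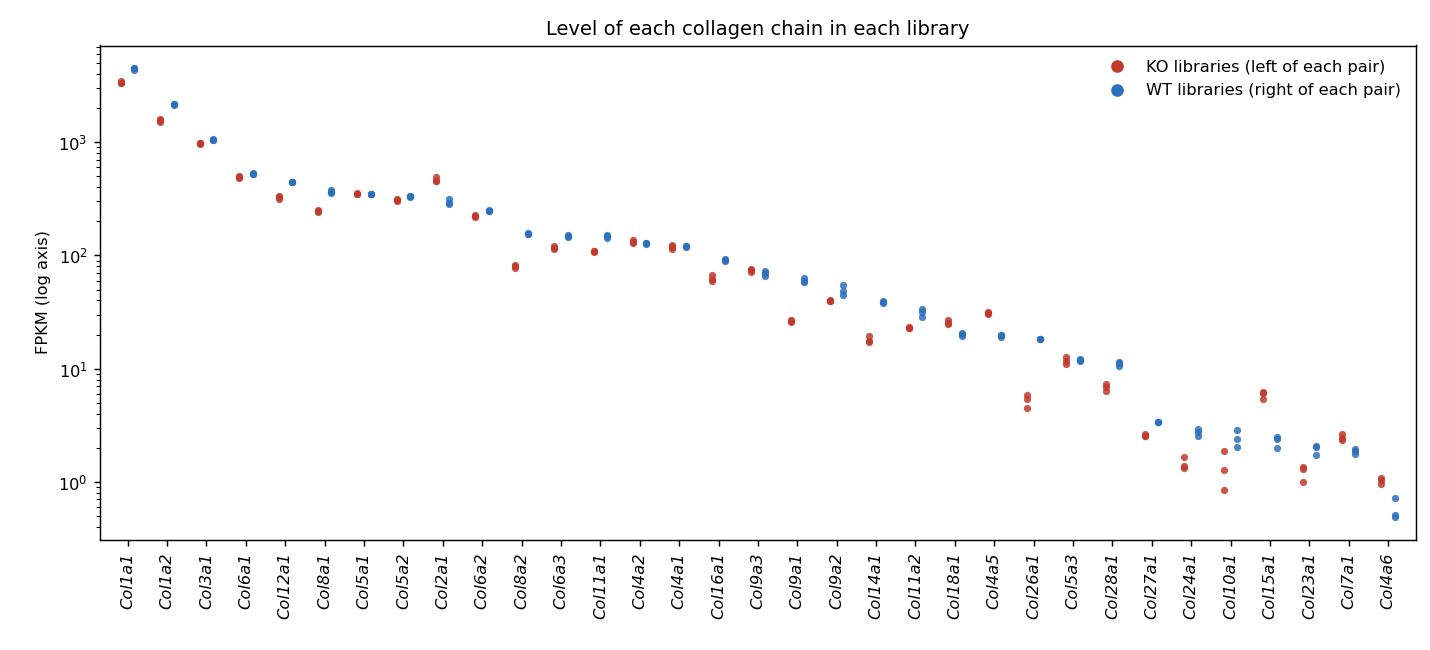
FPKM of each collagen chain in each library (vertical log axis, FPKM), for chains that averaged at least 1 FPKM in either group, ordered from left to right by their WT mean, with the 3 KO libraries to the left of the 3 WT libraries. Col1a1 lies highest in both groups, at 3363 FPKM in KO, against 4469 FPKM in WT, whereas Col26a1 and Col15a1 show wide gaps in opposite directions.

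Among the 11 fibrillar chains 8 fell and 1 rose, and both type I chains, the most abundant by FPKM, were among those that fell. Col1a1 stood at 22589, 22728 and 23816 CPM in the KO libraries, against 30905, 32059.8 and 32085 CPM in the WT libraries. Col1a2 stood at 19681, 20407 and 20799 CPM in the KO libraries, against 28497, 29188 and 28971 CPM in the WT libraries. Every KO library lay below every WT library for both chains, which kept 72.7% and 70.3% of the WT level (-0.46 ± 0.02 and -0.51 ± 0.02, edgeR adjusted p = 1.87e-07 and adjusted p = 4.04e-08). Type I reads were 52.5 ± 0.423% of collagen counts in KO and 57.3 ± 0.394% in WT (SD, n = 3). Col3a1, the homotrimer chain that shares fibrils with type I in soft tissue, stood at 9965, 9799 and 10211 CPM in the KO libraries, against 11056, 11339 and 11038 CPM in the WT libraries. Its log2 change of -0.16 ± 0.02 (edgeR adjusted p = 1.21e-04) was smaller than that of either type I chain, with 95% intervals of -0.20 to -0.12 for Col3a1 and -0.51 to -0.41 for Col1a1. Col3a1 was not called in limma on log2(FPKM + 1) without a filter (log2 change -0.11, adjusted p = 0.117).

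The bases just before the RefSeq start of Col1a2 and Col3a1 (build GRCm38.p6) are shown because they are fibril partners that fell by different amounts. Capitals mark every match on either strand to TATAAA (the TATA box), CCAAT (a motif of NF-Y), GGGCGG (of Sp1), ACCACA (of Runx factors), TGANTCA (of AP-1) or ACAAAG (of Sox factors).
Col1a2 (chr6:4505368-4505617, plus strand): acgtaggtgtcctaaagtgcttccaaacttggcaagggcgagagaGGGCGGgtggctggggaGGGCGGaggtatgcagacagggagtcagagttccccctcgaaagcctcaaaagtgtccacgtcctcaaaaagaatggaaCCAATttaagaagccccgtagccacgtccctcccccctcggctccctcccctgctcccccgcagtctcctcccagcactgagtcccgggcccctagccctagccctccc
Col3a1 (chr1:45311288-45311537, plus strand): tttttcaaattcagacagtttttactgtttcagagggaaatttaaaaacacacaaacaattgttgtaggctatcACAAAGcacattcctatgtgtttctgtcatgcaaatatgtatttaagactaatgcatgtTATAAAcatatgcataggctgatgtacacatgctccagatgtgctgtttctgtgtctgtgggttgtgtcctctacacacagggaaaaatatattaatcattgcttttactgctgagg
The Col1a2 window held CCAAT once, 105 to 109 bases before the start, and GGGCGG at 183 to 188 and 200 to 205 bases. The Col3a1 window held TATAAA once, 112 to 117 bases before the start, and ACAAAG at 171 to 176 bases. The RefSeq table matched 35 of the 44 chains, and Col1a1, Col2a1, Col4a3, Col5a2, Col9a3, Col12a1, Col14a1, Col22a1 and Col26a1 had no entry. GGGCGG lay in a window of 250 bases for 21 of the 35 chains (60.0%) and in 32.7% of all 32851 windows. TATAAA lay in 5 of 35 chains, against 12.4% of all windows, and CCAAT in 13 of 35, against 33.8%. ACAAAG lay in 4 of 35 chains (16.5% of all windows), ACCACA in 3 (14.0%) and TGANTCA in 1 (6.75%). A match is a run of letters and no sign of binding.

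The type V and XI chains, which join fibrils in small amounts and limit their width, did not change alike. Col5a1 averaged 3142 ± 64.0 CPM in KO and 3233 ± 25.1 CPM in WT (SD, n = 3) and was not called, with a 95% interval of -0.08 to 0.00 around its log2 change of -0.04. On library totals without TMM the sign of this small difference turned (0.007). Col5a2 averaged 3087 ± 80.2 CPM in KO and 3438 ± 5.12 CPM in WT and fell slightly (-0.16 ± 0.02, edgeR adjusted p = 2.96e-04). Col5a3, a minor type V chain, averaged 83.3 ± 5.43 CPM in KO and 88.1 ± 1.66 CPM in WT and was not called (-0.08 ± 0.05). Col11a1, which takes the place of type V in cartilage fibrils and is also made by osteoblasts, stood at 1429, 1449 and 1472 CPM in the KO libraries, against 2029, 1957 and 2099 CPM in the WT libraries, and Col11a2 at 163, 163 and 169 CPM in the KO libraries, against 236, 212 and 252 CPM in the WT libraries. Both fell (-0.48 ± 0.03 and -0.50 ± 0.05, edgeR adjusted p = 5.12e-07 and adjusted p = 7.82e-05), with no overlap between the groups.

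Col2a1 was the fibrillar chain that rose. Col2a1, the chain of type II collagen that dominates cartilage, stood at 4366, 4348 and 4749 CPM in the KO libraries, against 2927, 2818 and 3138 CPM in the WT libraries, 1.52-fold higher in KO (0.60 ± 0.04, edgeR adjusted p = 3.30e-06). Every KO library lay above every WT library. The more distantly related fibrillar chains Col24a1, known from bone, and Col27a1, known from cartilage, both fell. Col24a1 stood at 13.2, 10.9 and 10.6 CPM in the KO libraries, against 24.3, 21.0 and 22.9 CPM in the WT libraries, which left 50.8% of the WT level (-0.98 ± 0.09). Col27a1 averaged 35.0 ± 0.807 CPM in KO and 47.8 ± 0.129 CPM in WT (SD, n = 3; -0.45 ± 0.04). Their edgeR adjusted p-values were 3.61e-05 and 4.31e-05. In limma on log2(FPKM + 1), a scale that understates the change of low genes, their log2 changes were -0.62 and -0.30.

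**Figure D2:**
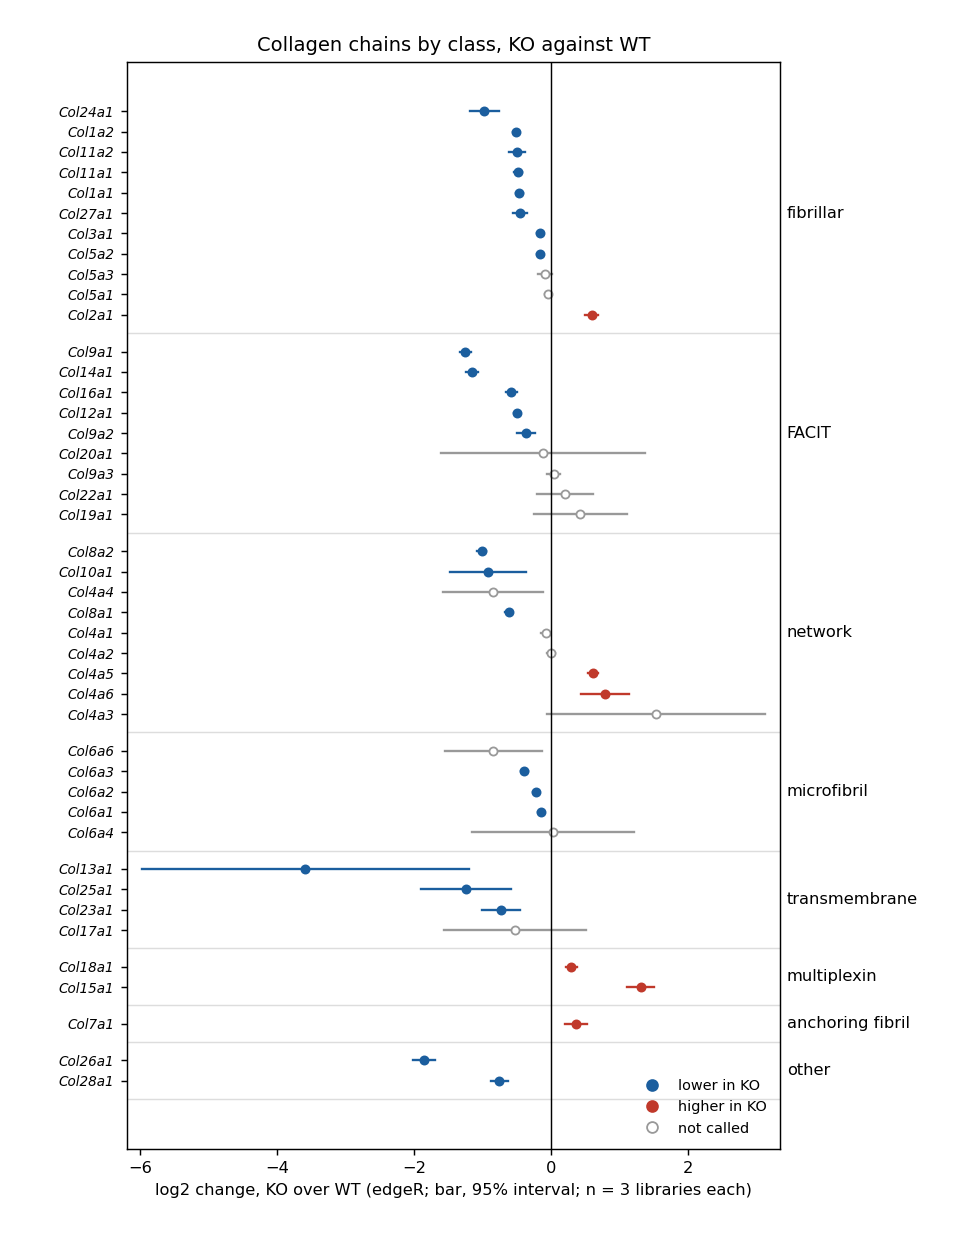
Log2 change of each tested collagen chain, KO over WT (horizontal axis), by class, from edgeR's fit with 95% intervals as bars and 3 libraries per group. Filled blue points are chains called lower, filled red points chains called higher, and open grey points chains not called. The 24 lower chains reach from Col13a1 at -3.59 to Col6a1 at -0.14, and the 6 higher chains from Col18a1 at 0.30 to Col15a1 at 1.31.

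Of the 9 FACIT chains 5 fell, none rose and 4 were not called, with a median log2 change of -0.36. Col12a1, which coats type I fibrils and is the most abundant FACIT chain here by FPKM, stood at 5253, 4997 and 5206 CPM in the KO libraries, against 7319, 7266 and 7291 CPM in the WT libraries. It kept 70.7% of the WT level (-0.50 ± 0.02, edgeR adjusted p = 4.70e-08), close to the share kept by the type I chains. Col14a1, a related fibril-surface chain, stood at 126, 141 and 129 CPM in the KO libraries, against 289, 292 and 300.2 CPM in the WT libraries. This was 2.22-fold lower (-1.15 ± 0.04, edgeR adjusted p = 2.44e-08), and the groups were far apart. Col16a1 averaged 444 ± 24.1 CPM in KO and 662 ± 9.18 CPM in WT (SD, n = 3) and fell too (-0.58 ± 0.04, edgeR adjusted p = 1.43e-06).

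The type IX chains, FACIT partners of type II in cartilage, split. Col9a1 stood at 136, 140.2 and 139.8 CPM in the KO libraries, against 325, 316 and 346 CPM in the WT libraries, 2.38-fold lower in KO (-1.25 ± 0.04, edgeR adjusted p = 7.51e-09). Col9a2 stood at 127, 130.1 and 129 CPM in the KO libraries, against 162, 150.1 and 183 CPM in the WT libraries and fell less (-0.36 ± 0.06, edgeR adjusted p = 0.00149). It was not called in limma on log2(FPKM + 1) without a filter (adjusted p = 0.0531). Col9a3 stood at 289, 296 and 307 CPM in the KO libraries, against 293, 271 and 304 CPM in the WT libraries, groups that overlap, and was not called (95% interval -0.05 to 0.13). The 95% interval of Col9a1 was -1.33 to -1.17 and lay apart from those of both partners. The low FACIT chains Col19a1, Col20a1 and Col22a1 had at most 2.25 CPM in a library and were not called, although the 3 Col22a1 values in KO lay above those in WT.

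Cartilage markers beside these chains moved in both directions. Of 10 chondrocyte markers listed, 9 were tested, and 4 fell and 1 rose, beside 11.7% called lower and 11.2% higher over all genes tested. The summed level of the listed markers was 599 to 629 CPM in KO and 655 to 707 CPM in WT. Sox9, the regulator of type II collagen, was higher at 119 ± 3.60 CPM in KO and 83.2 ± 3.59 CPM in WT, Acan, the main cartilage proteoglycan, stood at 57.7 ± 3.88 CPM in KO and 55.7 ± 8.33 CPM in WT and was not called, and Matn1 was lower at 0.399 ± 0.112 CPM in KO and 9.40 ± 1.38 CPM in WT. Snorc was near 0 in both groups and was not tested. The part of cartilage-like cells in the type II, IX, X and XI values was not tested.

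The network class held chains that moved both ways. Of its 9 chains 3 fell (both type VIII chains and Col10a1), 2 rose (Col4a5 and Col4a6) and 4 were not called. Col8a1 and Col8a2 form the short-chain type VIII network, known from blood vessel walls and the eye. Col8a1 stood at 2025, 1957 and 2065 CPM in the KO libraries, against 3184, 3027 and 3076 CPM in the WT libraries, and Col8a2 at 359, 384 and 379.7 CPM in the KO libraries, against 752, 749 and 767 CPM in the WT libraries. They kept 65.1% and 49.5% of the WT level (-0.62 ± 0.03 and -1.01 ± 0.03, edgeR adjusted p = 6.83e-08 and adjusted p = 7.57e-09), with the groups far apart for both.

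Col4a5 and Col4a6 encode the alpha5 and alpha6 chains of type IV collagen, which join in basement membranes around smooth muscle and beneath some epithelia. Col4a5 stood at 214, 216 and 223 CPM in the KO libraries, against 144, 137 and 144 CPM in the WT libraries, and Col4a6 at 9.07, 7.92 and 8.67 CPM in the KO libraries, against 4.40, 4.22 and 6.21 CPM in the WT libraries. Both rose with no overlap between the groups (0.62 ± 0.03 and 0.79 ± 0.15, edgeR adjusted p = 3.71e-07 and adjusted p = 0.00402). In limma on log2(FPKM + 1) without a filter the log2 change of Col4a6 was 0.37. Col4a1 and Col4a2, the chains of the common alpha1 and alpha2 trimer, were not called, although the Col4a1 values in KO all lay below those in WT. Col4a1 averaged 923 ± 40.8 CPM in KO and 973 ± 9.12 CPM in WT and Col4a2 914 ± 31.5 CPM in KO and 913 ± 13.2 CPM in WT (SD, n = 3), with 95% intervals of -0.14 to -0.01 and -0.06 to 0.06 on the log2 scale. Without KO replicate 3, Col4a1 was called lower (-0.11, edgeR adjusted p = 0.0242). Col4a3 and Col4a4, chains of kidney basement membrane, were near 0. Col4a3 had 16, 15 and 14 counts in the KO libraries, against 4, 8 and 2 counts in the WT libraries, and Col4a4 had 32, 30 and 35 counts in the KO libraries, against 47, 53 and 61 counts in the WT libraries. Neither overlapped between the groups and neither was called (edgeR adjusted p = 0.163 and adjusted p = 0.0960).

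Type IV genes lie in head-to-head pairs that are read away from a shared gap. In the deposited coordinates, whose mouse build was not settled, Col4a5 and Col4a6 lay 1308 bases apart on chromosome X, and Col4a3 and Col4a4 lay 71 bases apart on chromosome 1. Col4a1 and Col4a2 overlapped by 22 bases on chromosome 8. Whether the counting used strand was not given. Partners of a pair had log2 changes of 0.62 (Col4a5) and 0.79 (Col4a6), and of -0.08 (Col4a1) and 0.00 (Col4a2), of which the last pair was not called. The third pair had opposite signs, -0.85 (Col4a4) and 1.54 (Col4a3), at few counts and with neither called. Col3a1 and Col5a2, tail to tail 24.6 kb apart on chromosome 1, had log2 changes of -0.16 and -0.16, whereas Col9a1 and Col19a1, tail to tail 9.21 kb apart on the same chromosome, had changes of -1.25 and 0.43, the second not called. The bases before the RefSeq starts of the type VIII chains, which fell, and of Col4a5 and Col4a6, which rose, are shown with the same matches in capitals and, for the type IV genes, without bases inside the annotated gene.
Col8a1 (chr16:57754738-57754987, minus strand): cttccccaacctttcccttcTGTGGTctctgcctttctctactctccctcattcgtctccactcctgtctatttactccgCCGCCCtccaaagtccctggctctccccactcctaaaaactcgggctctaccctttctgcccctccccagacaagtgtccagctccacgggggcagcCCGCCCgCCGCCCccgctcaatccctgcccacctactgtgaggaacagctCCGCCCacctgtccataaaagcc
Col8a2 (chr4:126286544-126286793, plus strand): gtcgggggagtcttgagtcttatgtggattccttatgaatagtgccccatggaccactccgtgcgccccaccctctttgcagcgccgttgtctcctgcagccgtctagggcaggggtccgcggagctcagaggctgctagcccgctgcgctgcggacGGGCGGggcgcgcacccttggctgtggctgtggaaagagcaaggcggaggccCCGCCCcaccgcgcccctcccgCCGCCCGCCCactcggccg
Col4a5 (chrX:141475169-141475369, plus strand): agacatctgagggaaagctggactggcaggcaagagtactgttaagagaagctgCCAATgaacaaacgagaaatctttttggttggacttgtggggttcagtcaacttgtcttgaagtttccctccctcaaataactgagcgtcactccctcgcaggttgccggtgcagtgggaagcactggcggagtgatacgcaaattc
Col4a6 (chrX:141474096-141474326, minus strand): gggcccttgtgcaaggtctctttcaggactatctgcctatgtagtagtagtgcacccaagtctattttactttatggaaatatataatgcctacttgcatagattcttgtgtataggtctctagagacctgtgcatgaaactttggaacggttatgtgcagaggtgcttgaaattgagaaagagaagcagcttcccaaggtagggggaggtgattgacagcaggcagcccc
GGGCGG or its complement was matched at 4 places in each type VIII window, where the nearest pair to the start overlaps in Col8a2, and ACCACA or its complement was matched once in Col8a1. The trimmed Col4a5 window of 201 bases held CCAAT once, and the trimmed Col4a6 window of 231 bases held none of the motifs searched. Among chains with a RefSeq entry, GGGCGG lay in the full windows of 11 of 19 called lower and 4 of 5 called higher. The type IV windows shown leave out bases that this count covers, so they do not set rising chains apart from falling ones. The split was not tested.

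Col10a1, the type X chain of cartilage that is about to mineralize, was low and variable. It had 317, 172 and 475 counts in the KO libraries, against 630, 453 and 548 counts in the WT libraries, or 4.36 ± 1.73 CPM in KO and 8.23 ± 1.37 CPM in WT. Its log2 change was -0.91 ± 0.25 (edgeR adjusted p = 0.0242). It was no longer called when KO replicate 1, WT replicate 1 or WT replicate 3 was left out (edgeR adjusted p = 0.0858, 0.0975 and 0.0671), and over all alternatives the adjusted p ran from 8.36e-04 to 0.120. The log2 change was -1.25 without KO replicate 3 and -0.67 without KO replicate 2.

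Type VI collagen, the beaded microfibril around most connective tissue cells, fell mildly. Of the 6 microfibril chains 5 were tested, and 3 fell while 2 were not called. Col6a1 stood at 2232, 2300.5 and 2245 CPM in the KO libraries, against 2479, 2537 and 2462 CPM in the WT libraries. Col6a2 averaged 1932 ± 32.9 CPM in KO and 2237 ± 18.1 CPM in WT, and Col6a3 1463 ± 46.1 CPM in KO and 1915 ± 25.7 CPM in WT (SD, n = 3). The log2 changes were -0.14 ± 0.02 for Col6a1, -0.21 ± 0.02 for Col6a2 and -0.39 ± 0.02 for Col6a3 (edgeR adjusted p = 4.60e-04, 1.97e-05 and 1.62e-06), and no KO library overlapped WT for any of them. The log2 change of Col6a1 was -0.09 on library totals without TMM. It was not called in limma on log2(FPKM + 1) without a filter (adjusted p = 0.116). Col6a4, Col6a5 and Col6a6, which can stand in for the alpha3 chain, were barely read. Col6a6 had 44, 34 and 37 counts in the KO libraries, against 58, 78 and 53 counts in the WT libraries and was not called (edgeR adjusted p = 0.0885), and Col6a4 had at most 35 counts in a library. Col6a5 had no counts except 18 in WT replicate 3 and was not tested. These 3 genes lie in a row on chromosome 9, and how reads shared between them were counted was not given.

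**Figure D3:**
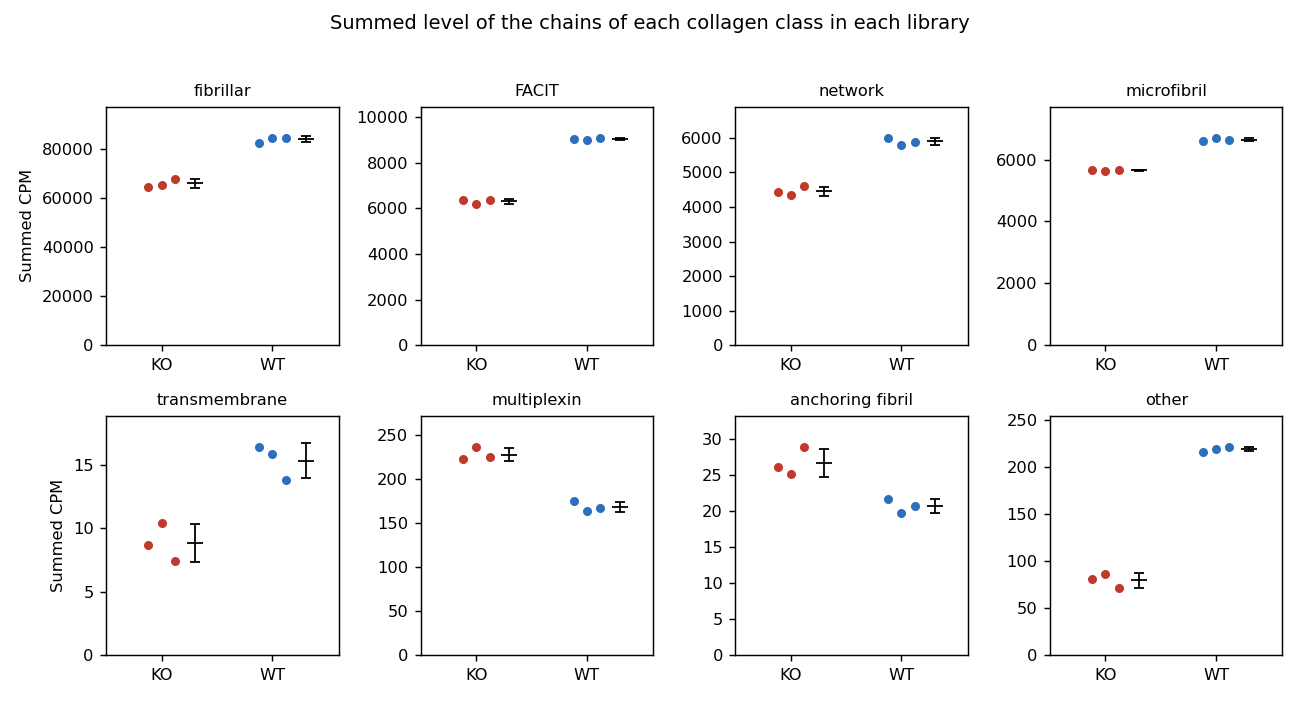
Summed CPM of the chains of each collagen class (vertical axes from 0, each panel on its own scale) in each library, with KO to the left of WT and the mean ± SD of 3 libraries beside the points. The fibrillar sum averaged 65794 CPM in KO and 83766 CPM in WT, and the multiplexin and anchoring fibril sums lie higher in KO.

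By summed level, the fibrillar class stood at 64467, 65194 and 67722 CPM in the KO libraries, against 82448, 84419 and 84429.7 CPM in the WT libraries, or 78.5% of the WT mean. The FACIT class kept 69.7%, the network class 75.7% and the microfibril class 85.1% of the WT mean. The network fall lay in type VIII, whose pair of chains summed to 2342 to 2445 CPM in KO and 3776 to 3936 CPM in WT, while the other 7 network chains summed to 1999 to 2151 CPM in KO and 2022 to 2068 CPM in WT. The multiplexins reached 135%. By CPM, which are not divided by length, fibrillar chains made up 79.7% of the collagen total in KO and 79.2% in WT. Within the class, Col2a1 moved against Col1a1 and Col1a2, and the share of the class was close in both groups. These sums are descriptions of the libraries, with no test over the list.

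Transmembrane collagens were low, and 3 of the 4 fell. Col23a1, a membrane chain that can be shed, stood at 7.72, 8.12 and 6.07 CPM in the KO libraries, against 12.5, 12.9 and 10.8 CPM in the WT libraries (-0.73 ± 0.12, edgeR adjusted p = 0.00176). Col25a1, known from the innervation of muscle, had 50, 63 and 40 counts in the KO libraries, against 113, 95 and 131 counts in the WT libraries (-1.24 ± 0.30, edgeR adjusted p = 0.0125). Without WT replicate 3 its call was lost (-1.13, edgeR adjusted p = 0.0527), and the edgeR, DESeq2 and limma alternatives gave 0.00574 to 0.0527. Col13a1, a chain of the neuromuscular junction, had 0, 8 and 0 counts in the KO libraries, against 49, 20 and 28 counts in the WT libraries. Its log2 change of -3.59 ± 1.07 rests on a single KO library with reads (edgeR adjusted p = 0.0361), and without KO replicate 2 the KO group held no count, so that its fitted change is no bound. Leaving out KO replicate 1, KO replicate 3, WT replicate 1, WT replicate 2 or WT replicate 3 each ended the edgeR call (adjusted p = 0.106, 0.0869, 0.158, 0.0647 and 0.0867), and the full set of alternatives gave 0.00426 to 0.158. Col17a1, the hemidesmosome chain of skin, had 24 to 71 counts in KO and 42 to 92 in WT, overlapped between the groups and was not called. On log2(FPKM + 1), which understates low genes, the log2 changes of Col13a1, Col23a1 and Col25a1 were -0.12, -0.41 and -0.09 without a filter.

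Markers of muscle, nerve and vessels in the same libraries were mostly low. For comparison, 11.7% of all genes tested were called lower and 11.2% higher. Of 10 skeletal muscle markers 8 were tested and 4 fell, with a summed level of 7.33 to 10.02 CPM in KO and 31.5 to 38.0 CPM in WT. Myh8, a myosin of developing muscle, held much of the WT sum, at 1.01 ± 0.489 CPM in KO and 21.5 ± 2.52 CPM in WT (-4.39 ± 0.26, edgeR adjusted p = 1.02e-06), and Mylpf, a myosin light chain, stood at 0.293 ± 0.0574 CPM in KO and 1.74 ± 0.119 CPM in WT (-2.56 ± 0.28, edgeR adjusted p = 9.15e-05). Ckm had no counts in KO and in WT was read only in replicate 1, at 0.0612 CPM. Myod1, the defining muscle regulator, averaged 0.0600 ± 0.0641 CPM in KO and 0.181 ± 0.0581 CPM in WT. Neither Ckm nor Myod1 was tested. Of 6 Schwann cell and nerve markers tested 3 rose, with a sum over the 6 of 55.4 to 61.4 CPM in KO and 22.3 to 23.6 CPM in WT, among them Stmn2, a protein of growing neurites, at 36.8 ± 3.57 CPM in KO and 11.8 ± 1.25 CPM in WT, while Sox10, the defining regulator of Schwann cells, stood at 1.08 ± 0.261 CPM in KO and 1.45 ± 0.557 CPM in WT and was not called. Of 8 endothelial markers tested 4 fell, with a sum of 10.1 to 11.8 CPM in KO and 21.8 to 23.5 CPM in WT. Erg and Tek held most of this sum in both groups. Erg, an endothelial transcription factor, stood at 2.47 ± 0.492 CPM in KO and 8.25 ± 0.740 CPM in WT (-1.73 ± 0.16), Tek, the angiopoietin receptor, at 5.77 ± 0.943 CPM in KO and 10.2 ± 0.0387 CPM in WT (-0.82 ± 0.13) and Cdh5, VE-cadherin, at 0.346 ± 0.0936 CPM in KO and 1.08 ± 0.116 CPM in WT (-1.63 ± 0.34). Their edgeR adjusted p-values were 2.71e-05, 8.67e-04 and 0.00593. Pecam1, which marks all endothelium, stood at 0.390 ± 0.236 CPM in KO and 0.640 ± 0.107 CPM in WT and was not called. Kdr, Vwf and Esam averaged at most 0.759 CPM in either group. Their log2 changes were 0.64 ± 0.57, 0.70 ± 1.24 and 0.02 ± 0.43, and none was called. The part of these cells in the transmembrane chains was not tested.

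Both multiplexins rose. Col15a1, a proteoglycan collagen of basement membrane zones in muscle and capillaries, stood at 41.3, 40.5 and 36.1 CPM in the KO libraries, against 17.2, 16.5 and 13.7 CPM in the WT libraries. It was 2.49-fold higher in KO (1.31 ± 0.09, edgeR adjusted p = 2.83e-06), the largest rise among the called chains, and the groups did not overlap. Col18a1, whose end is released as the vessel growth inhibitor endostatin, stood at 181, 195 and 188 CPM in the KO libraries, against 157, 147 and 154 CPM in the WT libraries (0.30 ± 0.04, edgeR adjusted p = 2.01e-04). Col7a1, the chain of the anchoring fibrils that hold epidermis to dermis, stood at 26.0, 25.2 and 28.8 CPM in the KO libraries, against 21.7, 19.7 and 20.7 CPM in the WT libraries and rose (0.37 ± 0.07, edgeR adjusted p = 0.00328). Among epithelial markers, Krt5, Krt8, Krt18, Epcam and Cdh1 were at or near 0, averaging at most 0.296 CPM in either group. Trp63 was higher than these, at 11.1 ± 0.876 CPM in KO and 13.5 ± 2.13 CPM in WT, and was not called. The 6 chains that rose were Col2a1, Col4a5, Col4a6, Col7a1, Col15a1 and Col18a1.

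Col26a1 and Col28a1, which fit none of the main classes, both fell. Col26a1, a secreted chain first described in testis and ovary, stood at 45.5, 49.3 and 38.4 CPM in the KO libraries, against 160.4, 160.2 and 160.3 CPM in the WT libraries. The WT libraries hardly differed from each other, and KO kept 27.7% of their level, 3.61-fold lower (-1.85 ± 0.07, edgeR adjusted p = 5.43e-08). Col28a1, known from peripheral nerve, stood at 35.0, 37.1 and 32.9 CPM in the KO libraries, against 56.1, 59.6 and 60.9 CPM in the WT libraries and was 1.68-fold lower (-0.75 ± 0.06, edgeR adjusted p = 5.13e-06). Among chains above 1 CPM in both groups, Col26a1 had the largest fall.

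Ratios compared the mRNA of chains that share a trimer or a fibril. They were formed within each library from FPKM for 14 pairs, and compared by an exact two-sided permutation test, whose smallest p with 3 against 3 libraries is 0.1, so no ratio could pass. The KO and WT ranges were apart for 11 of the 14 ratios, each with p = 0.1 in that exact test and adjusted p = 0.127 over the 14. The count describes these pairs, and the share over other gene pairs was not computed. The Col1a1 to Col1a2 ratio was 2.17, 2.11 and 2.17 in the KO libraries, against 2.05, 2.08 and 2.10 in the WT libraries. It depends on the length scaling of FPKM, and the proportion of chains in protein was not measured. Col3a1 to Col1a1 was 0.295, 0.288 and 0.287 in the KO libraries, against 0.239, 0.236 and 0.230 in the WT libraries. Col5a1 to Col1a1 was 0.106, 0.104 and 0.103 in the KO libraries, against 0.0795, 0.0778 and 0.0775 in the WT libraries. Col3a1 and Col5a1 mRNA were higher relative to type I in every KO library. Col11a1 to Col5a1 was 0.307, 0.315 and 0.308 in the KO libraries, against 0.425, 0.404 and 0.435 in the WT libraries, lower in KO, while the Col11a2 to Col11a1 ratio averaged 0.211 ± 0.00266 in KO and 0.213 ± 0.0113 in WT, with overlapping values.

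The ratios that differed most were within type IX. Col9a3 to Col9a1 was 2.80, 2.78 and 2.89 in the KO libraries, against 1.19, 1.13 and 1.16 in the WT libraries, and Col9a2 to Col9a1 averaged 1.52 ± 0.0115 in KO and 0.820 ± 0.0462 in WT (SD, n = 3). Type IX collagen holds 1 of each chain, and Col9a1 had the largest fall of the 3. Col8a2 to Col8a1 averaged 0.324 ± 0.0169 in KO and 0.426 ± 0.0122 in WT. Col6a3 to Col6a1 averaged 0.237 ± 0.0106 in KO and 0.281 ± 0.00641 in WT. The ratios of Col4a2 to Col4a1 (1.12 ± 0.0217 in KO and 1.06 ± 0.0126 in WT), Col6a2 to Col6a1 (0.450 ± 0.0123 in KO and 0.472 ± 0.00539 in WT) and Col5a1 to Col5a2 (1.14 ± 0.0220 in KO and 1.05 ± 0.00805 in WT) differed little in size although their ranges were apart. Col4a6 to Col4a5 and Col5a3 to Col5a1 overlapped between the groups, and the difference in Col5a3 to Col5a1 turned sign without KO replicate 3.

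**Figure D4:**
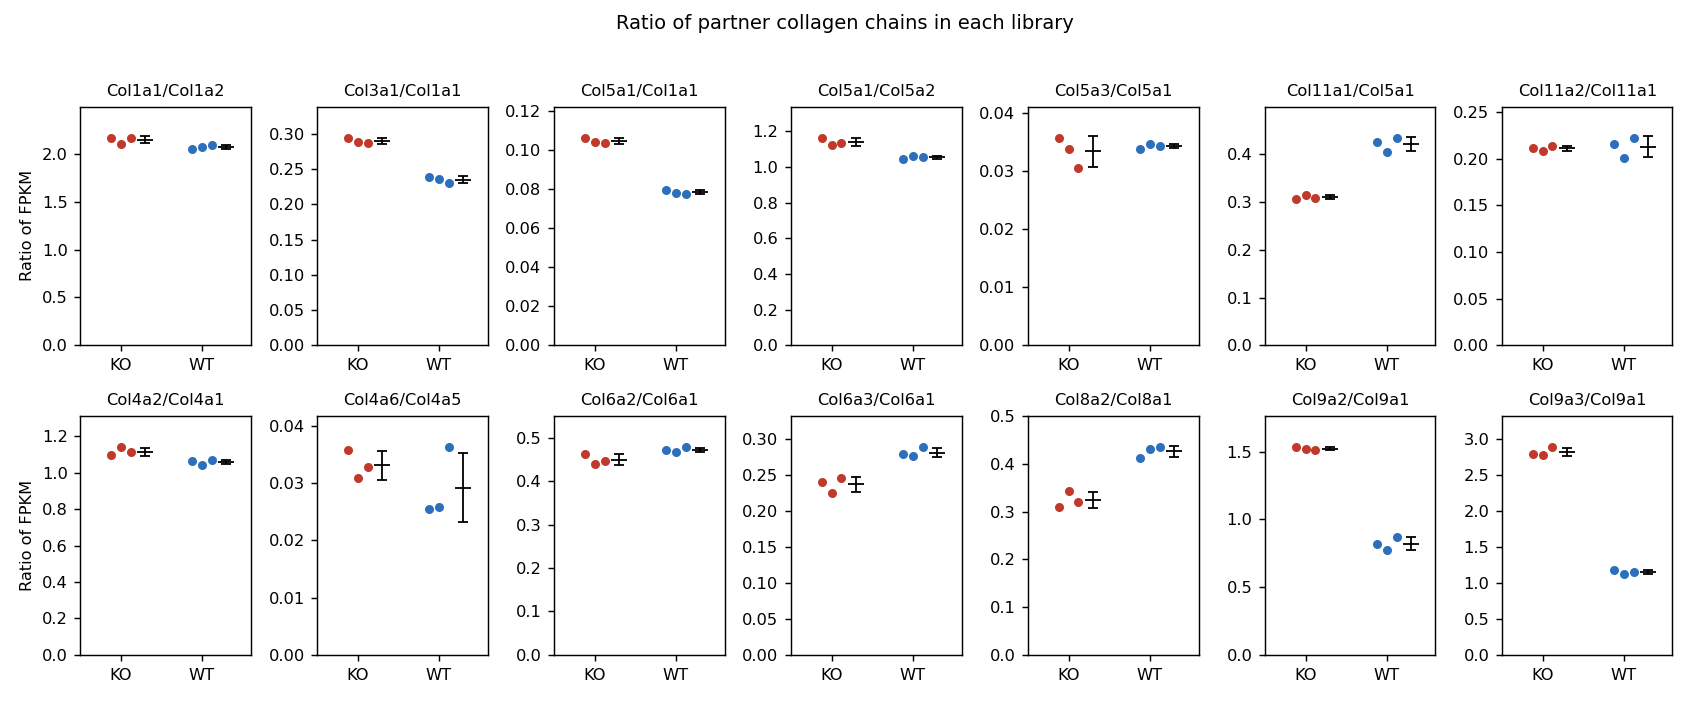
Ratio of FPKM of partner collagen chains in each library (vertical axes from 0, each panel on its own scale), with KO to the left of WT and the mean ± SD of 3 libraries beside the points. Col9a3 to Col9a1 averages 2.82 in KO and 1.16 in WT, whereas Col1a1 to Col1a2 averages 2.15 in KO and 2.08 in WT.

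Genes that make, trim and crosslink collagen were read from a list of 30, all tested, of which 17 fell and 6 rose, with a median of -0.15. Serpinh1, the collagen chaperone HSP47, fell by 0.34 ± 0.03 on the log2 scale, P3h1, a prolyl 3-hydroxylase, by 0.42 ± 0.03, and Tll1, a procollagen C-proteinase, by 0.46 ± 0.03. Loxl3, a lysyl oxidase that crosslinks chains, rose by 0.64 ± 0.04. Of 9 collagen receptors tested 3 fell and 2 rose. Among them, the integrin subunits Itga2 and Itga10 changed by -0.81 ± 0.07 and -0.84 ± 0.05, and Ddr1, a receptor tyrosine kinase that binds collagen, by 0.51 ± 0.03. Lair1, an inhibitory collagen receptor of leukocytes, changed by 1.54 ± 0.37. Of 17 transcription factors known to act on collagen genes 4 fell (Runx2, Creb3l1, Mkx and Smad3) and 2 rose (Sox9 and Foxf2). Beside each of these lists, 11.7% of all genes tested were called lower and 11.2% higher. Creb3l1, which drives Col1a1 in osteoblasts, was at 157 ± 6.32 CPM in KO and 196 ± 7.93 CPM in WT, and Mkx, a tendon factor, at 17.5 ± 0.503 CPM in KO and 27.2 ± 0.136 CPM in WT.

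Markers of other cell types differed between the same libraries, where 11.7% of all genes tested were called lower and 11.2% higher. Of 15 macrophage markers 13 rose and none fell, with a summed level of 1056 to 1154 CPM in KO and 409 to 535 CPM in WT. The markers of lowest p were C1qc and C1qb, complement chains (1.59 ± 0.11 and 1.48 ± 0.10), Cd68, a lysosomal protein (1.38 ± 0.10), and Ctss, cathepsin S (1.56 ± 0.12). Lyz2, lysozyme, the highest by FPKM, stood at 729.9 ± 40.2 CPM in KO and 336 ± 48.8 CPM in WT. Of 5 tendon markers 4 fell, with a sum of 2317 to 2404 CPM in KO and 2747 to 2800.5 CPM in WT, among them Tnmd, tenomodulin, at 196 ± 1.31 CPM in KO and 399 ± 7.38 CPM in WT. Fmod, fibromodulin, held most of this sum, at 2113 ± 49.2 CPM in KO and 2282 ± 24.6 CPM in WT (-0.11 ± 0.02). Scx, a tendon transcription factor, stood at 12.3 ± 0.969 CPM in KO and 13.3 ± 1.64 CPM in WT and was not called. Of 9 osteoblast markers 4 fell (Runx2, Alpl, Dmp1 and Phex) and 1 rose (Spp1), with a sum of 1743 to 2018 CPM in KO and 850.1 to 954 CPM in WT. Spp1, osteopontin, averaged 1729.7 ± 158 CPM in KO and 658 ± 52.1 CPM in WT, and the summed level of the other 8 was lower in KO, at 180.3 to 194 CPM in KO and 252 to 267 CPM in WT. Their part in the collagen values was not tested.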

How the data were processed

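The authors deposited 1 table for the whole series with counts and FPKM per gene and library. Counts are whole numbers of reads or fragments per gene, per the file headers. FPKM were computed by the authors, per the file headers, and are scaled by transcript length and library. The submitters' processing notes name cutadapt 1.9, HISAT2 2.0.4 and StringTie 1.3.4d and list a human build, although all 29018 identifiers are of mouse, so the coordinate build is unsettled. How counts were made and whether strand was used is not given in the sources used here.

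Groups came from the sample labels. The two-sided quasi-likelihood test of edgeR 4.0.16 in R 4.3.3 was run on the counts of all genes after filterByExpr and TMM scaling, without covariates, with DESeq2 1.42.0 and limma 3.58.1 (pseudocount 1 or 0.1) as alternatives. The SE is the absolute log2 change divided by √F, and 95% intervals use the fit's degrees of freedom. The biological coefficient of variation was 12.6%. Within replicate pairs, the variance of scaled counts divided by their mean had a median of 2.75 to 3.26 over genes, above counting noise alone. No library was therefore counted as deposited more than once, which does not show separate animals or cultures. The pipeline was checked on simulated data.

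Members, classes and lists were chosen with earlier results of these data known. Values per library are given for the most abundant chain of each class, type I, and every called chain that changed by at least 0.58 on the log2 scale, besides others that a class turns on. Of the other lists up to 4 genes of lowest p could be named, and others named (such as Ckm, Myod1, Pecam1, Sox10 and Lyz2) are defining or abundant markers chosen after their values were seen. Alternatives were other scalings, filters, units and tools, a replicate block and leaving out each library. Motifs were searched in the 250 bases before each RefSeq start, without the 50 after it. A listed nerve marker is not reported here and stays out of the summed level printed for that list. No protein sequence was used here, so planned protein features were not run.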

Additional observations from a re-analysis of the deposited data

How the results depend on the processing

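Of the 30 called chains, 24 kept their call and direction under each of 15 alternatives that gave a value, and none changed direction. The exceptions were Col3a1, Col6a1 and Col9a2 (limma on log2(FPKM + 1) without a filter) and the low chains Col10a1, Col13a1 and Col25a1. Leaving out 1 library gave 21 to 24 chains lower and 6 higher, against 24 and 6. No count filter in edgeR gave 22 and 6, and limma on log2(FPKM + 1) without a filter gave 19 and 6. Deviations from the group mean had r of -0.007, 0.081 and 0.026 between same-numbered KO and WT libraries across 9660 genes. Between libraries of unlike number r ran from -0.081 to 0.062. With 3 libraries per group this cannot show whether replicate numbers pair libraries. With a replicate block in edgeR, 23 chains were lower and 6 higher. Col13a1 was the call lost there (adjusted p = 0.0597). Raising the minimum to 100 counts left 24 and 6. Over all genes, limma called 1267 (pseudocount 1), 1254 (0.1) or 1246 (no filter) lower, against 2131 in edgeR. In the same order it called 2289, 2281 and 2062 higher, against 2048 in edgeR. The filtered limma runs tested 12106 genes, the run without a filter 29018 and edgeR 18221. On library totals without TMM, edgeR called 1629 lower and 2769 higher. The cause was not tested.

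Chains that were not called and turned sign were Col5a1 (0.0074 without TMM, and 0.0080, 0.0081 and 0.0080 in limma with pseudocount 1, 0.1 and no filter) and Col4a2 (-0.0006 when scaled without the collagen genes). Leaving out 1 library gave ranges of -0.0288 to 0.0200 for Col4a2, -0.0055 to 0.0767 for Col9a3, -0.53 to 0.34 for Col20a1 and -0.36 to 0.41 for Col6a4. The same ranges for log2 ratios were -0.0932 to 0.0199 for Col5a3 to Col5a1 and -0.0531 to 0.0227 for Col11a2 to Col11a1.

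Without TMM the log2 change of summed levels was -0.30 (fibrillar), -0.47 (FACIT), -0.35 (network), -0.18 (microfibril), 0.48 (multiplexin) and -0.31 (all chains). With sums of FPKM it was -0.30 (fibrillar), -0.46 (FACIT), -0.15 (microfibril), 0.49 (multiplexin), -1.28 (Col26a1 and Col28a1) and -0.30 (all chains). No direction changed. Chains under about 1 CPM gave intervals too wide to show moderate changes.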
